A study of Homo sapiens with 4 samples.

Results

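TGIF1, TGIF2, SKI and SKIL encode corepressors of the SMAD transcription factors, and all ChIP-seq peaks that lay at these 4 genes were taken from a control peak list and a TGF-β1 peak list of human cells labelled HSC. A peak belonged to a gene when its summit, the base of highest coverage, lay inside the gene or within 100 kb of it with no other protein-coding gene nearer. This gave 4 of the 15993 TGF-β1 peaks, all at TGIF1, and 0 of the 5307 control peaks. TGIF2, SKI and SKIL had 0 peaks in both lists, so in these data the set comes down to TGIF1. TGIF1 was included because several TGF-β1 peaks were known to lie there, that is, it was chosen by its peak count in this contrast, so its counts are given as a description, without a test.

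TGF-β binds receptors at the cell surface that phosphorylate SMAD2 and SMAD3, which join SMAD4 and act on genes in the nucleus. TGIF1 and TGIF2 are homeodomain proteins of the TALE class, and they bind activated SMADs and recruit histone deacetylases. SKI and SKIL (also called SnoN) bind SMAD proteins directly and recruit the NCOR1, SIN3A and histone deacetylase complexes. SKI and SnoN proteins are broken down when cells receive TGF-β, and SKIL is in many cell types transcribed again in response to it, as a brake on the pathway.

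The study had 4 libraries. Control cells gave 1 ChIP and 1 input library, and cells given TGF-β1 at 20 ng/mL for 2 h gave 1 of each. The labels call the cells HSC in the fields for source and cell line, and stem cells and progenitors in the field for cell type. They name GDF11 as a second treatment without saying which libraries it concerns, and no antibody is named in the sources used here. Peak positions do not measure expression, so the cell label was not checked against marker genes. Input is sheared chromatin without immunoprecipitation, and it gives the local background. Each condition had 1 ChIP library, so no test between conditions was possible, and all differences are between those libraries. After removal of duplicates the ChIP libraries held 36280696 tags in the control and 45984282 with TGF-β1. Intervals cover counting error only.

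The 250 bases before the outermost start of TGIF1, TGIF2 and SKIL help to place the peaks. They are shown because SMAD complexes bind the short site AGAC, read as GTCT on the other strand, and because they mark the starts from which the distances below are given. They come from RefSeq (GRCh38.p14), run 5′ to 3′ on the plus strand, and have AGAC and GTCT in capitals. They lie at chr18:3411759-3412008 (TGIF1), chr20:36573214-36573463 (TGIF2) and chr3:170357465-170357714 (SKIL).
TGIF1: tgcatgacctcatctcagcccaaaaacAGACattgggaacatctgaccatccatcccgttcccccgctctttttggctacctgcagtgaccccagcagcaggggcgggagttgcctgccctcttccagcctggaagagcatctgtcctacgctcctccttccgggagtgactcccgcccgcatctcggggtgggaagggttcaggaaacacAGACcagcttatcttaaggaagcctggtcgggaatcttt
TGIF2: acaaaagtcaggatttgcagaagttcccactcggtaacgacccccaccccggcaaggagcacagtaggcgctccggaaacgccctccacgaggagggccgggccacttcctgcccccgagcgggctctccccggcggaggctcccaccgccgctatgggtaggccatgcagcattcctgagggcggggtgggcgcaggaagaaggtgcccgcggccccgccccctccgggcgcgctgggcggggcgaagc
SKIL: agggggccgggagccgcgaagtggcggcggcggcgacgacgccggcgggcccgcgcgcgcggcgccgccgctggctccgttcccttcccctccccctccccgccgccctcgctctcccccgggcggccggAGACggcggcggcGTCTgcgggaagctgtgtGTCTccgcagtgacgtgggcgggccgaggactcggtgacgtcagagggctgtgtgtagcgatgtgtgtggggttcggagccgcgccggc
The TGIF1 stretch held 2 such sites, that of SKIL 3 and that of TGIF2 0. TGIF1 had 7 windows in the table of promoters (300 bases each, from 250 before a start to 50 after it), TGIF2 had 2, SKIL 1 and SKI 0.

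TGIF1 (gene 7050, chromosome 18, 3412009 to 3459978, hg38, plus strand) spans 48.0 kb. Its 7 listed starts fall into an outer one at 3412009 and a group of 6 between 3447542 and 3451593, toward the far end of the gene. The summits of 3 TGF-β1 peaks lay between the outer start and that group, and that of the other lay past the gene's end. No summit was closer to a listed TGIF1 start than 5.33 kb. Whether the 3 summits inside the gene fell in an exon or an intron was not analysed.

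The first peak ran from 3417313 to 3417465 (153 bp), with its summit 5.33 kb downstream of the outer start. Its pileup, the number of ChIP tags that cover the summit after extension to the fragment length, was 22 (Poisson interval 13.8 to 33.3). The authors' fold enrichment, pileup plus 1 over local background plus 1, was 3.22, and the −log10 q was 3.46. This was the peak of highest pileup and, among those inside the gene, of highest fold.

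The second peak and the third stood 6.04 kb apart near the middle of the gene. The second ran from 3431878 to 3432014 (137 bp), 20.0 kb from the outer start, with 20 tags at the summit (12.2 to 30.9), 2.67-fold enrichment and −log10 q = 2.1. The third ran from 3437908 to 3438056 (149 bp), 26.0 kb from the outer start and 9.54 kb before the next one, with 18 tags (10.7 to 28.4), 2.76-fold enrichment and −log10 q = 2.04. Both were weak within their list. The second ranked 13292 and the third 12723 of 15993 by fold, and 16.2% and 19.3% of the TGF-β1 peaks had a lower fold.

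The last peak was the strongest by fold and q. It ran from 3463630 to 3463820 (191 bp), with 21 tags at the summit (13.0 to 32.1), 4.46-fold enrichment and −log10 q = 5.74. Its fold ranked 2429 in the list. Its summit lay 3.70 kb past the end of TGIF1, inside the non-coding gene LOC105371965 and 2.57 kb before the start of GAPLINC, a long non-coding RNA gene. TGIF1 is the nearest protein-coding gene, but with all annotated genes considered this peak falls to LOC105371965. The rest of the TGIF1 peaks had summits in no other annotated gene.

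**Figure D1:**
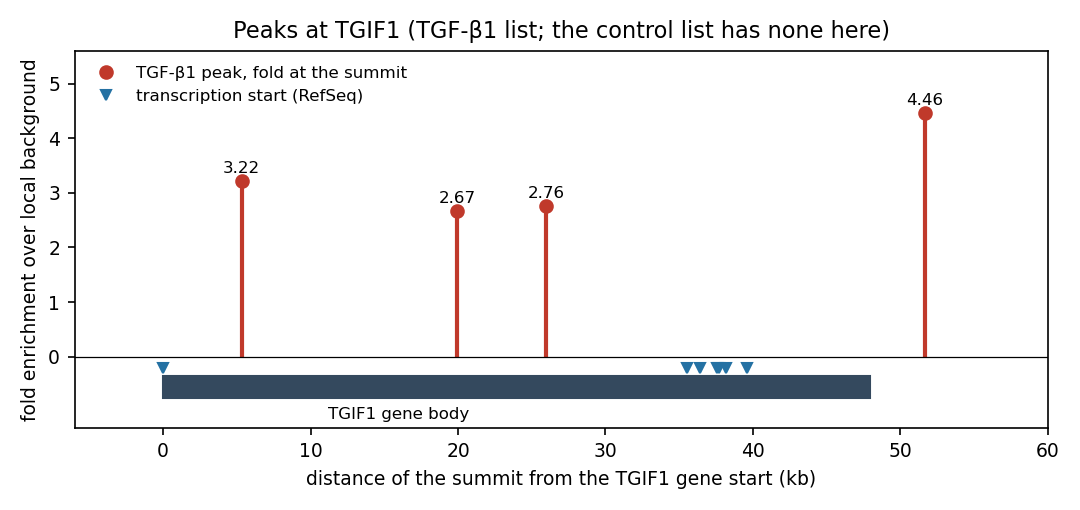
Fold enrichment of the 4 TGF-β1 peaks (red, y axis, ratio) against the distance of their summits from the TGIF1 gene start (x axis, kb), with the gene body as a dark bar and the 7 RefSeq starts as blue triangles. The 3 summits inside the gene lie between the outer start and the group of 6 starts, and the peak of highest fold (4.46) lies past the gene's end.

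Pileups at the 4 summits were alike, at 18 to 22 tags with intervals that overlapped throughout, whereas the folds ran from 2.67 to 4.46. The local background differed more, at 6.15, 6.88, 5.90 and 3.93 tags from the first peak to the last, or 2.65, 2.97, 2.55 and 1.70 times the genome-wide background of 2.32 tags. These values equal those that 7, 6 and 4 input tags over the summit would give for peaks 2, 3 and 4 in this order, and 46 input tags in the surrounding 1 kb for the first (within 0.01 tags). Counts of 7, 6 and 4 are small, and no interval was computed for them. Whether the backgrounds and folds of the 4 peaks differ beyond counting error was not tested. The peak past the gene's end thus combined a pileup of 21 with the lowest divisor of the 4. All 4 backgrounds were below 5 times the genome-wide value. The median fold of the 4 peaks was 2.99 and that of the whole TGF-β1 list 3.46, with median pileups of 20.5 and 19 tags.

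The control list had no summit near TGIF1, and the closest one lay 2176 kb from it. None of the 4 peaks overlapped a control peak. Peak lists hold no value where no peak was called, so the control signal at these sites is not known from them. The lowest −log10 p among called peaks was 3.72 with TGF-β1 and 4.01 in the control. With peak length and other caller conditions left aside, these values set the lowest pileup that could be called over a given background. In the TGF-β1 library that limit was 17, 18, 16 and 13 tags at the 4 sites, against pileups of 22, 20, 18 and 21. Scaled to the control library by the ratio of the genome-wide backgrounds (0.859), the same pileups came to 18.9, 17.2, 15.5 and 18.0 tags, and the lowest pileup that could be called there to 16, 17, 15 and 12. That limit takes the TGF-β1 local background on the same scale, because the control library's own background at these sites is not known. On that scale the second peak and the third stood less than 1 tag above the control limit, and the last peak 6.03 tags above it. Of all TGF-β1 peaks, 14642 (91.6%) were past the control limit on that scale. All of them had already passed the limit of the TGF-β1 library, so this share does not show what could be called in the control library.

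**Figure D2:**
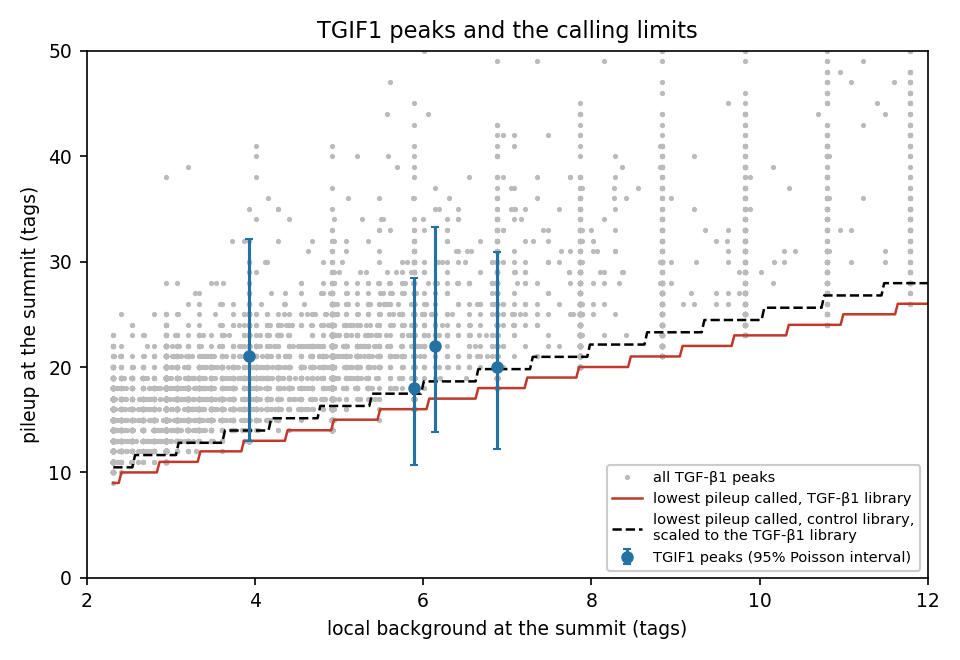
Pileup at the summit (y axis, tags) against local background (x axis, tags) for the TGF-β1 peaks in the plotted range (grey) and the 4 TGIF1 peaks (blue, with 95% Poisson intervals), with the lowest pileup that could be called in the TGF-β1 library (red line) and in the control library after scaling (dashed line). Both lines rest on the p-value at the summit alone, with peak length left aside. The dashed line rests on the TGF-β1 local background, scaled to the control library. The TGIF1 peaks of pileup 20 and 18 lie close to the dashed line, and the peak of pileup 21 over a background of 3.93 lies well above both lines.

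Peaks were common near genes in the TGF-β1 list. Of 19866 protein-coding genes, 25.5% had at least 1 TGF-β1 peak assigned and 9.36% at least 1 control peak. For the corepressor genes the counts were 1 of 4 and 0 of 4 in this order. They are not set against these shares, because TGIF1 was included for its TGF-β1 peaks. At least 4 TGF-β1 peaks were assigned to 1.66% of the genes (329), and 0.705% (140) had at least 4 TGF-β1 peaks and 0 control peaks, as TGIF1 did. With the TGF-β1 list cut by fold to the length of the control list, TGIF1 kept 1 peak, the one past its end. TGIF1 was chosen for its several peaks, and nothing is read from these shares or from those that follow. The 329 genes had a median length of 444 kb, against 24.5 kb over all genes, and 9 of them were no longer than TGIF1. At least 3 TGF-β1 summits inside the gene were found in 2.06% of all genes, and in 0.147% (3 of 2037) of those 40 to 60 kb long, TGIF1 among them.

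The stretch of genome nearest to TGIF1 within 100 kb measured 133 kb. Over all such stretches the TGF-β1 list had 0.393 peaks per 100 kb and the control list 0.112. TGIF1 was chosen for its count, so its 4 peaks are not set against this rate. The 4 summits spanned 46.3 kb, with gaps of 14.6, 6.04 and 25.7 kb. In the TGF-β1 list 3630 of 15804 runs of 4 neighbouring summits were as close together. Of these, 80 lay outside the 1-Mb bins that held at least 20 peaks of both lists together. The total of runs outside such bins was not counted, and nothing is read from these counts. The bin of TGIF1 held 5 TGF-β1 peaks and 0 control peaks, and the median over bins with any peak was 5 peaks of both lists together. Of the genes on either side of TGIF1, MYL12B, which encodes a myosin regulatory light chain, had 0 peaks in both lists. DLGAP1, a gene of a synaptic scaffold protein 959 kb long, had 2 TGF-β1 and 0 control peaks. The next TGF-β1 summit, 175 kb from TGIF1 (fold 3.48), lay inside MYOM1, the gene of the sarcomere protein myomesin.

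TGIF2 (gene 60436, chromosome 20, 36573464 to 36593950), the close relative of TGIF1, was far from any TGF-β1 summit. The closest lay 718 kb away inside PHF20 (fold 3.17). In the control list the closest was 204 kb away inside DLGAP4 (fold 2.71, −log10 q 1.47). The gene overlaps the readthrough gene TGIF2-RAB5IF, which also had 0 peaks in both lists, as had the neighbours MYL9 and RAB5IF. The stretch nearest to TGIF2 was 31.5 kb long, in which 0.124 TGF-β1 peaks would lie at the rate above.

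SKI (gene 6497, chromosome 1, 2228319 to 2310213), the founding member of its family, had peaks on both sides just outside the limit of 100 kb. A TGF-β1 summit lay 109 kb away on the side of lower coordinates, inside PRKCZ, an atypical protein kinase C gene (2119265 to 2119438, pileup 22, fold 2.92, −log10 q 2.85). A control summit lay 111 kb away on the other side, inside PLCH2, a phospholipase C gene (2420951 to 2421188, pileup 24, fold 3.87, −log10 q 5.28). Both would go to those genes at any distance limit. The neighbours of SKI, FAAP20 and MORN1, had 0 peaks in both lists.

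SKIL (gene 6498, chromosome 3, 170357715 to 170396849) had its nearest control summit 122 kb away inside PRKCI, another atypical protein kinase C gene (170235633 to 170235810, pileup 28, fold 3.81, −log10 q 6.08). The nearest TGF-β1 summit lay 284 kb away inside GPR160 (pileup 19, fold 3.36). CLDN11, the neighbour on the other side, had 0 peaks in both lists. The stretches nearest to SKI and SKIL measured 95.2 kb and 76.0 kb, with 0.374 and 0.299 TGF-β1 peaks at the rate above. A count of 0 over these stretches allows up to 3.15 and 3.95 peaks per 100 kb, taking 3 counts as the limit.

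**Figure D3:**
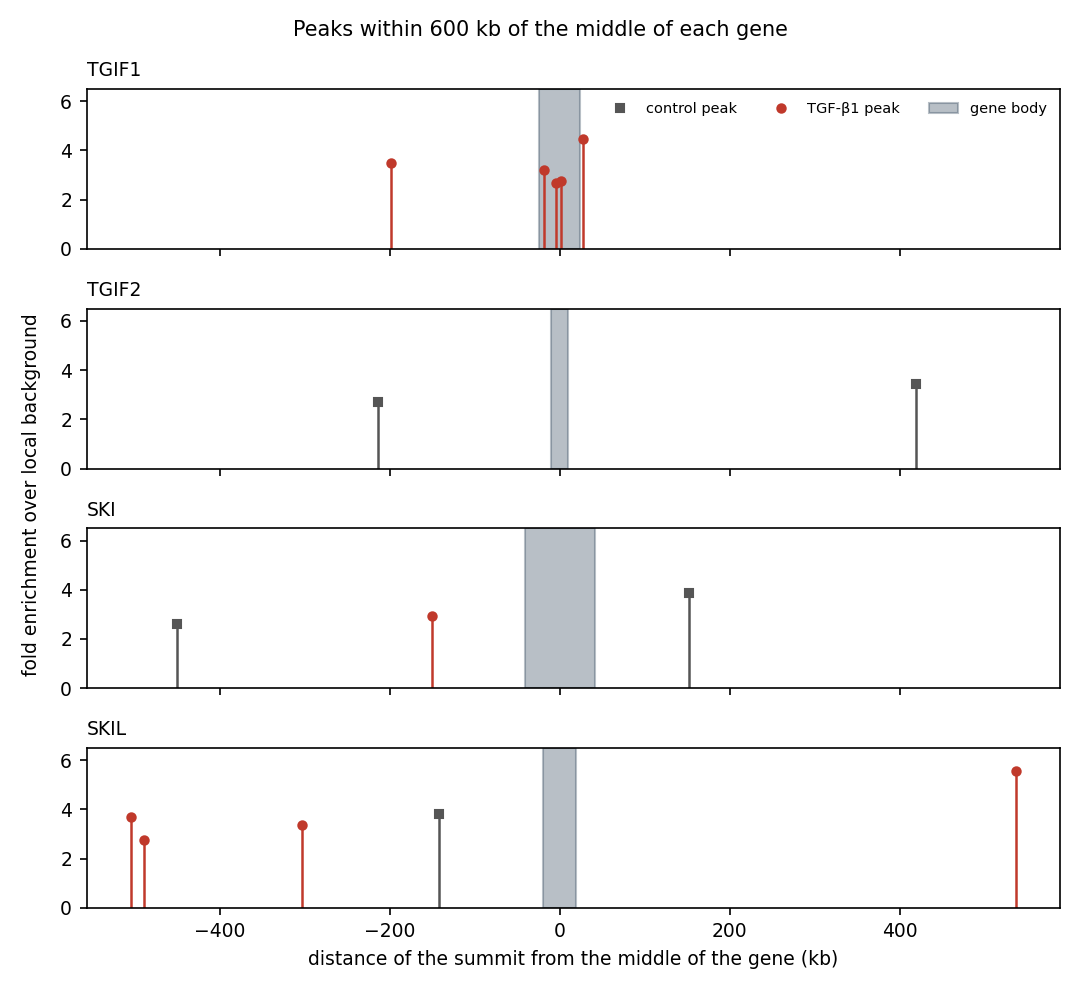
Fold enrichment (y axis, ratio) of control peaks (grey squares) and TGF-β1 peaks (red circles) against the distance of the summit from the middle of each gene (x axis, kb), with the gene body shaded. Only TGIF1 has summits in its body, and those nearest to SKI and SKIL lie 109 kb or more from the gene.

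None of the 10 promoter windows of these genes held a peak in either list, and none of the 35116 windows in the table did. The table does not cover every gene, and whether it leaves out windows that overlap peaks is not known, so nothing is read from these counts of 0. AGAC was present in 7 of 7 TGIF1 windows, 1 to 5 times each, in the SKIL window (3 times) and in 0 of 2 TGIF2 windows, against 84.0% of all windows. TGTCA, the core that TGIF proteins recognise, was in 4 TGIF1 windows, 3 times in the one that starts at 3449318, and in 1 TGIF2 window, against 38.9% of all. GGCGC, a GC-rich site also bound by SMADs, was in 5 TGIF1 windows, both TGIF2 windows and the SKIL window, against 48.6%. The palindrome GTCTAGAC, which contains AGAC on both strands, was in 0 windows of these genes and in 0.202% of all. The AP-1 site TGANTCA was in 3 TGIF1 windows, against 7.71% of all. AGATAA, which GATA factors bind, was in 1 TGIF1 window, against 10.3% of all. The E box CANNTG was in 4 TGIF1 windows, against 68.7% of all. CCACCC, a site of KLF factors, was in 5 TGIF1 windows and both TGIF2 windows, against 34.3% of all. Both strands were searched. The TGIF1 windows that start at 3449318 and 3449457 overlap, as do the 2 TGIF2 windows, so 1 site can count in 2 windows. A match in these windows is not a bound site, and the sequence under the 4 peaks was not analysed here.

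Relatives of the corepressors were set beside them with lists of named genes. In the SKI, SnoN and Dachshund family, 3 of 7 members carried TGF-β1 peaks and 1 of 7 control peaks, against 25.5% and 9.36% of all genes. SKOR1, a neuronal SKI-like corepressor gene, had 2 TGF-β1 peaks, the stronger 5.65-fold enriched with −log10 q = 8.27, at a distance of 59.0 kb. DACH1 encodes a nuclear corepressor with a SKI-like domain. It had 1 TGF-β1 peak inside it (fold 3.92) and 2 control peaks (highest fold 3.51, 5.95 kb away). SKOR2 had 1 TGF-β1 peak inside it (3.04), and SKI and SKIL themselves are among the 4 members without one. Among 20 TALE homeodomain genes, 8 carried TGF-β1 peaks and 3 control peaks, against 25.5% and 9.36% of all genes. TGIF1 is among the 8 and was chosen for its peaks. With lists of equal length, for which the share of all genes was not computed, the counts were 5 and 3. MKX, a tendon transcription factor gene, led with a fold of 4.66 and a pileup of 77 over a high local background of 15.7 tags (−log10 q 22.6). PKNOX2 (4.52, inside the gene), IRX3 (4.49, 49.5 kb away) and TGIF1 (4.46, 3.70 kb away) followed by fold. The PKNOX2 fold came from 14 tags over 2.32, the lowest background in the TGF-β1 list. The −log10 q of these peaks was 4.07 (PKNOX2), 4.25 (IRX3) and 5.74 (TGIF1), the reverse of their order by fold. In the control list the genes with a peak were IRX5 (4.29, 93.3 kb away), PKNOX1 (3.80, inside the gene) and MEIS2 (3.61, 25.9 kb away). IRX5 also had 2 TGF-β1 peaks and MEIS2 1, while PKNOX1 had 0. TGIF1 had 4 of the 13 TGF-β1 peaks of the TALE list.

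The protein partners through which TGIF and SKI repress carried TGF-β1 peaks at 4 of 16 genes, close to the share of all genes, and control peaks at 1 of 16. With lists of equal length the counts were 1 and 1. SIN3A, the scaffold of a histone deacetylase complex, had a peak inside it with 4.42-fold enrichment and −log10 q = 5.14. TBL1XR1, a subunit of the NCOR complexes, followed with 3.50, HDAC2 with 3.05 and NCOR1 with 3.04. NCOR1 also had 2 control peaks (highest fold 3.25). The other 12 of the 16 partner genes had 0 TGF-β1 peaks and 0 control peaks.

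Of 6 genes for other SMAD corepressors, 4 carried TGF-β1 peaks and 1 a control peak, against 25.5% and 9.36% of all genes. With the TGF-β1 list cut by fold to the 5307 peaks of the control list the counts were 1 and 1, and with −log10 q of at least 5 they were 0 and 0. The share of all genes was not computed under these settings. MECOM, a transcription factor of blood stem cells, had 3 TGF-β1 peaks inside it and 1 control peak (3.43, 9.12 kb away). Its highest TGF-β1 fold, 4.52, came from 14 tags over 2.32, the lowest background in that list. ZEB2 had 1 TGF-β1 peak (3.05, 23.5 kb away) and ZEB1 1 (2.88, 20.7 kb away). Of the 8 genes for SMAD proteins, 4 carried TGF-β1 peaks and 1 a control peak, against the same shares of all genes, and with lists of equal length the counts were 1 and 1. SMAD2 had 3 TGF-β1 peaks (highest fold 4.26, 47.8 kb away) and SMAD3 1 (2.67, 74.2 kb away). SMAD1 had 1 (3.57, inside the gene) and SMAD9 2 (highest fold 3.21, inside the gene). SMAD9 also had 1 control peak inside it (2.83). Of the genes for ubiquitin ligases and their subunits that act on SKI, SKIL or SMADs, 5 of 8 carried TGF-β1 peaks and 2 of 8 control peaks, again against 25.5% and 9.36%. With lists of equal length these counts were 2 and 2. RNF111, which targets SKI and SnoN for breakdown, had a fold of 4.26 at 22.6 kb, and SMURF1 3.04 at 3.50 kb. The peaks of WWP2 (4.06) and SMURF2 (3.60) lay inside the gene. The control peaks lay inside NEDD4L (4.57) and 55.1 kb from WWP1 (4.09).

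These lists hold long genes, and long genes have more peaks. The median length was 127 kb for the other SMAD corepressors, 118 kb for the ligases and 77.2 kb for the SMAD genes, against 24.5 kb over all genes. Of the 3355 genes of at least 100 kb, 64.3% carried TGF-β1 peaks and 27.9% control peaks. The TALE genes had a median length of 19.8 kb. The part of gene length in the counts of these lists was not tested.

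**Figure D4:**
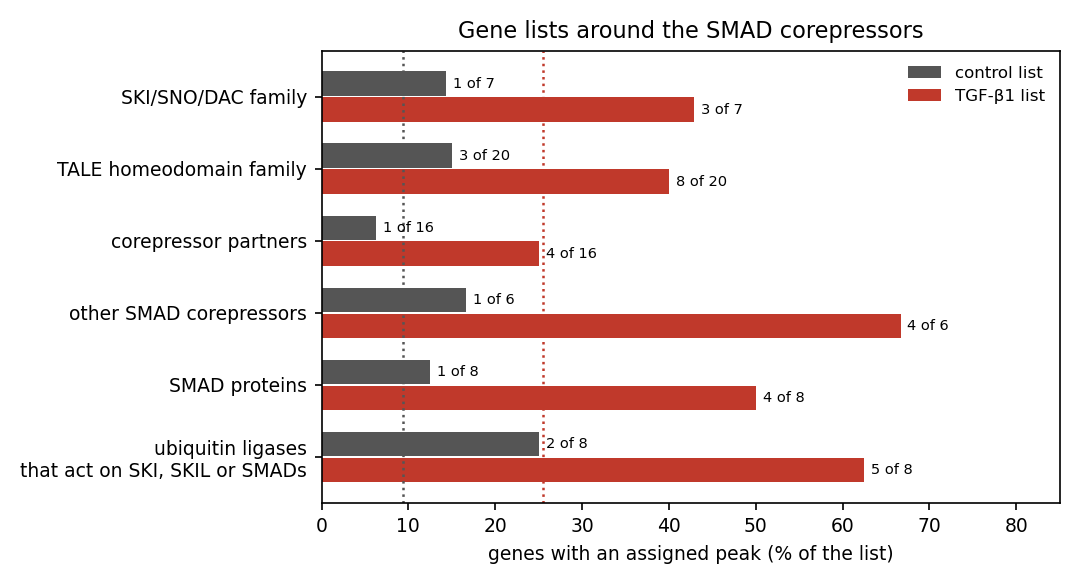
Share of genes with an assigned peak (x axis, % of the list) in the control list (grey) and the TGF-β1 list (red) for 6 gene lists, with the counts beside the bars and the share over all protein-coding genes as dotted lines (9.36% and 25.5%). The corepressor partners are near the dotted line of the TGF-β1 list, and the other lists are above it. The TALE list includes TGIF1, which was chosen for its peaks.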

How the data were processed

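The data are the authors' deposited peak lists, 1 per condition. Reads were aligned to hg38 with Bowtie2, per the submitters' processing notes, which name MACS2 2.1.0, while the file headers name version 2.2.7.1. Per the file headers, each ChIP library was called against the matching input with q-values up to 0.05, keeping 1 tag per position, with the larger library scaled to the smaller. The deposited pileup is a signal (coverage at the summit), the deposited fold enrichment is a ratio, and the deposited −log10 p-values and −log10 q-values come from the authors' peak caller. Fragment length was 148 bp (control) and 136 bp, tag length 60 bp and 43 bp, and input depth 66537905 and 46802425 tags, control first. The samples were grouped by library name.

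Here local background was recomputed from pileup and fold, and the p-values from it by a Poisson tail differed from those deposited by at most 0.00021 on the −log10 scale. Genes and promoter windows came from RefSeq (GRCh38.p14, the same build), 19866 protein-coding of 58961 genes on assembled chromosomes. Summits were assigned with Python 3.11.15 (pandas 2.3.3, scipy 1.17.1), a step tested on simulated positions. Poisson intervals are exact at 95%. The members and gene lists were chosen with earlier results of these data known. The genes named are the 4 members, their neighbours, the genes that hold the summits nearest to them, and up to 4 genes per list by highest fold. The values of 1 gene that this rule names are not reported here. The sequence features of the peaks themselves, planned where a genome was given, were not run. The alternatives were stricter q or fold limits, a shorter list, other distances, all genes, whole peaks and other overlaps.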

Additional observations from a re-analysis of the deposited data

How the results depend on the processing

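No paired analysis was possible because each group held 1 library. The 4 TGF-β1 peaks of TGIF1 fell to 2 with a −log10 q of at least 3 or a fold of at least 3, and to 1, the peak past the gene's end, with a −log10 q of at least 5 or with the TGF-β1 list cut by fold to 5307 peaks. They numbered 3 with all genes considered and 4 with limits of 10 kb or 250 kb, over low local background only, or with whole peaks in place of summits. TGIF2, SKI and SKIL had 0 peaks in both lists, and TGIF1 0 control peaks, under each of these settings, and 0 of the 4 peaks overlapped a control peak under the other 2 overlap rules. With a −log10 q of at least 5, genes with a control peak fell to 0 in the SKI family, the TALE genes, the corepressor partners, the other SMAD corepressors and the SMAD genes, and to 1 among the ligases. Genes with a TGF-β1 peak then fell to 2 (SKI family), 2 (TALE), 1 (partners), 0 (other corepressors), 1 (SMAD genes) and 1 (ligases). With the shorter TGF-β1 list they fell to 2, 5, 1, 1, 1 and 2 in that order. Within 10 kb, TGF-β1 counts fell to 2 (SKI family), 5 (TALE), 2 (other corepressors), 3 (SMAD genes) and 3 (ligases). Control counts within 10 kb fell to 1 (TALE) and 1 (ligases). These stricter settings keep fewer peaks by construction. The share of all genes was not computed under them, so these counts are not to be set against the shares of the full lists. Pileups of 18 to 22 tags limit the precision at TGIF1, and the Poisson intervals of the 4 pileups overlapped.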

Other observations

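Besides TGIF1, 2 genes of 40 to 60 kb held 3 TGF-β1 summits inside, COPA (54.7 kb), which encodes a subunit of the COPI vesicle coat, and GPR155 (55.5 kb). They were named after their values were seen. Both had 3 TGF-β1 peaks and 0 control peaks assigned, with highest folds of 4.49 (COPA) and 5.07 (GPR155). Of the 2037 genes in this range of length, 16.0% had at least 1 TGF-β1 summit inside.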
